A study of Mus musculus with 11 samples.

Results

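The lysyl oxidase family was followed through single-cell RNA of mouse hepatic mesenchyme. Its members were taken by gene symbol, and all 5 (Lox, Loxl1, Loxl2, Loxl3 and Loxl4) were found among the 27998 genes of the 10X and the 23997 of the Smart-seq2 tables. All cells came from young adult male Pdgfrb-BAC-eGFP mice on a C57BL/6 background, in which a Pdgfrb-driven transgene marks mesenchymal cells with GFP, and were sorted as GFP+, CD45- and CD102-, so that the other cells of the liver were not measured. The 10X libraries, each pooled from 3 mice, were uninjured and 6 weeks CCl4 with digestion protocol 1 (label PF), and uninjured, 72 h after 1 dose of CCl4 and 6 weeks CCl4 with digestion protocol 2 (label HSC). CCl4, carbon tetrachloride, damages the centre of the liver lobule, and bile duct ligation (BDL, 14 days) damages its portal side. The 6 Smart-seq2 plates held wells of uninjured, BDL and 6 weeks CCl4 mice by their labels and the deposited layout, which were followed although the study's methods describe the plates as uninjured livers.

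Lysyl oxidases are secreted copper enzymes that oxidise lysine residues of collagen and elastin, which then form the covalent crosslinks that make fibres stiff and hard to degrade. Lox and Loxl1 are the short members and are released by removal of a propeptide, whereas Loxl2, Loxl3 and Loxl4 carry scavenger receptor domains ahead of the catalytic part. In liver, their activity is studied for its part in matrix crosslinking during fibrosis. All members share a catalytic domain with a copper-binding segment, which is shown for 4 of them to let the genes be compared at the site that binds the copper they need. The capitals mark the codons of the 3 histidines that hold the copper.

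Loxl1: catagctgtCACcaaCATtacCAC
Loxl2: cacgactgcCACaggCACtacCAC
Loxl3: catgagtgtCATgggCATtacCAC
Loxl4: caccagtgcCACaggCACtacCAC

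The sequences are coding strand of GRCm38 (mm10), 5′ to 3′, and in each gene an intron interrupts them after base 14. The Loxl1 stretch spans chr9:58293720-58294372 on the minus strand, at the junction of exons 3 and 4 of 7. That of Loxl2 spans chr14:69682325-69689037 on the plus strand, at exons 10 and 11 of 14. In Loxl3 it spans chr6:83050004-83050125 on the plus strand, also at exons 10 and 11 of 14, and in Loxl4 it spans chr19:42598807-42599890 on the minus strand, at exons 11 and 12 of 15. Loxl2 and Loxl4 were identical at 22 of the 24 bases, Loxl3 was identical to each of them at 18, and Loxl1 was identical to the other 3 at 15 to 17. Lox lies on chromosome 18 (52516067 to 52529867, minus strand).

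The 10X libraries kept 5454 to 7310 cells each, with a median of 4300 to 11344 transcript molecules (unique molecular identifiers, UMIs) per cell. To name cells, the uninjured libraries were clustered together. The 6 week libraries were clustered jointly with the uninjured ones, and so was the 72 h library in a separate run. Clusters were named fibroblast-like (FB-like) by Clec3b, Dpt, Entpd2 and other marker genes. They were named hepatic stellate cell-like (HSC-like) by Vipr1, Colec11, Pth1r and others, and vascular smooth muscle cell-like (VSMC-like) by Tagln, Acta2, Myh11 and others. Protocol 1 gave 4068 FB-like and 1667 VSMC-like cells without injury, and 2617 and 3007 at 6 weeks. Protocol 2 gave 6850 HSC-like cells without injury, 7123 at 72 h and 5433 at 6 weeks. The summed HSC markers were lower with injury themselves, at 24588 counts per 1000000 UMIs (CPM) in uninjured HSC-like cells, 4406 CPM at 72 h and 12146 CPM at 6 weeks, while the FB list stood at 30.5, 247 and 524 CPM and the VSMC list at 594, 1877 and 995 CPM. A stricter naming rule left 884, 1308 and 1952 of the protocol 2 cells unnamed, and values under it are given where they differ. In number these match whole HSC-like clusters. Those of 884 and 1308 cells were led by Tmem178, Mest and Clec4g among others. Those at 6 weeks held 1877 cells, led by Clec4g and Cyp4b1, and 75 cells, led by Gcgr and Ngfr. Ngfr, the study's portal marker, was also among the leading genes of the 884 cells. The stricter names thus change the mix of HSC-like cells. Pairs of libraries shared 33 to 74 cell barcodes. Each condition had a single 10X library under a protocol, so 10X conditions were not tested, and the intervals given are exact 95% Poisson intervals for levels and exact binomial intervals for ratios, which cover counting error only and not the difference between animals.

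Lox, the founding enzyme of the family, was the member that differed most between uninjured and injured HSC-like cells. Its level was 2.48 CPM (95% interval 2.05 to 2.98, 115 UMIs) in uninjured HSC-like cells, 77.0 CPM (75.2 to 78.9) at 72 h and 18.7 CPM (17.5 to 19.9) at 6 weeks. The 72 h level was 31.1-fold (25.9 to 37.7) that of uninjured cells and 4.13-fold (3.86 to 4.42) that at 6 weeks. The 6 week level was 7.53-fold (6.20 to 9.22) the uninjured one but stayed under 20 CPM, the lowest level counted as past the 2-fold rule. At least 1 Lox UMI was found in 1.45% of uninjured, 43.3% of 72 h and 13.4% of 6 week HSC-like cells. Depth differed between these libraries, and with every cell thinned to 2000 UMIs the shares were 0.534%, 12.55% and 3.07%, in the same order. The FB marker list was also higher in the injured HSC-like cells, as given above. The part of fibroblast RNA in the Lox levels of HSC-like cells was not tested.

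Loxl1, which acts mainly in elastic fibre assembly, and Loxl2, which acts on the collagen IV of basement membranes as well as on fibrillar collagen, were also higher at 72 h. Loxl1 stood at 65.4 CPM without injury, 263 CPM at 72 h and 115 CPM at 6 weeks in HSC-like cells, ratios to the uninjured level of 4.02 (3.87 to 4.18) and 1.76 (1.69 to 1.84). Loxl2 stood at 82.15 CPM, 216 CPM and 126 CPM, ratios of 2.63 (2.54 to 2.73) and 1.54 (1.478 to 1.60). Thus 3 of the 5 members were 2-fold or more higher at 72 h than without injury, and none was 2-fold or more lower, against 6.43% and 9.51% of the 6234 genes compared, and the median gene differed by -0.21 on the log2 scale. At 72 h against 6 weeks, Lox and Loxl1 were past the fold and Loxl2 was 1.71-fold higher, against 3.78% of genes higher and 4.79% lower by the fold.

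Loxl3 and Loxl4 did not share this pattern. Loxl3, a close relative of Loxl2 by its domains, stood at 43.97 CPM without injury, 43.5 CPM at 72 h and 42.2 CPM at 6 weeks, and its ratio at 72 h was 0.989 (0.937 to 1.04). Loxl4 was lower with injury, at 9.77 CPM, 7.21 CPM and 5.23 CPM, with ratios of 0.738 (0.652 to 0.835) and 0.535 (0.459 to 0.624). None of its levels reached 20 CPM. At 6 weeks against uninjured no member was past the fold, which 2.73% of genes were upward and 1.58% downward. This count rests on the 20 CPM limit for Lox. It was 1 with all barcodes, with 1 joint clustering of all libraries or over all kept cells. With the stricter names it was 2 (Lox 9.32-fold, Loxl1 2.11-fold).

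**Figure D1:**
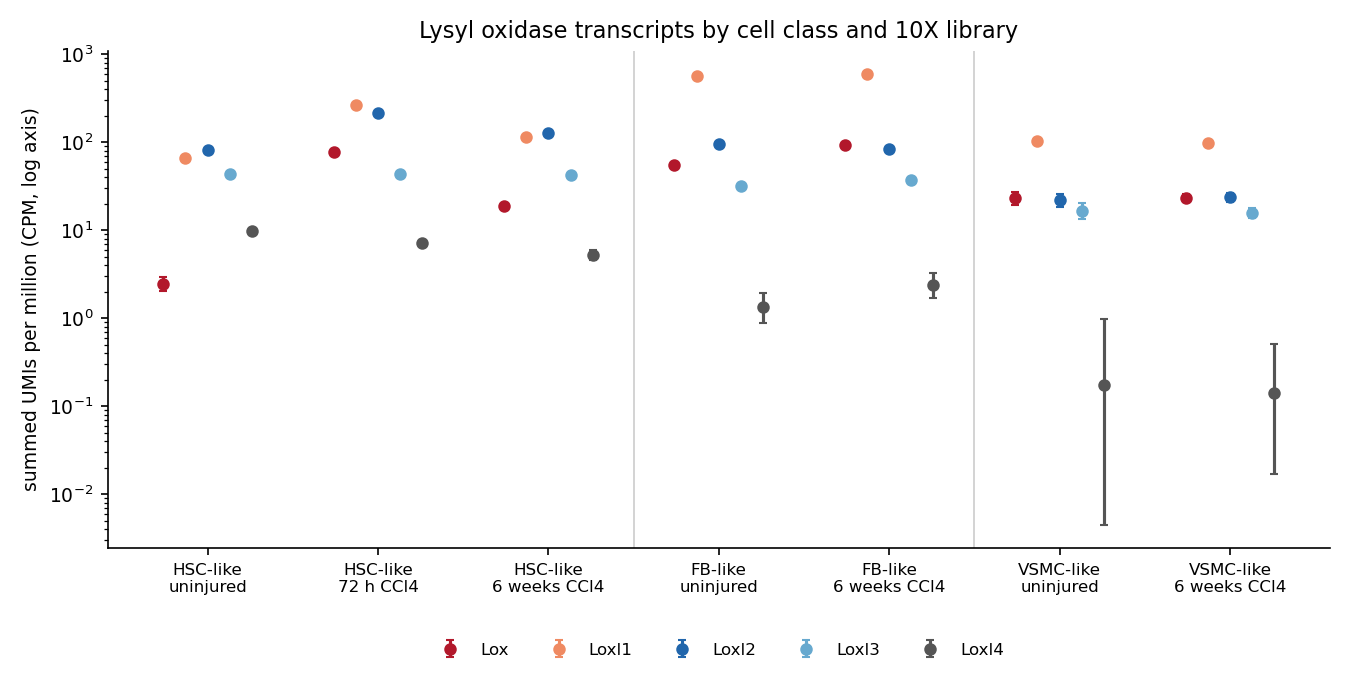
Level of each lysyl oxidase gene in 7 class and library groups of the 10X data, in CPM on a log axis, with exact 95% Poisson intervals as bars. In HSC-like cells Lox goes from 2.48 to 77.0 and 18.7, while Loxl3 stays between 42.2 and 43.97 and Loxl4 is near the bottom of the scale in VSMC-like and FB-like groups.

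The classes differed in which members they held, here set side by side although digestion differed between them. In FB-like cells, the fibroblasts of the portal tract, Lox stood at 54.6 CPM (51.5 to 57.96) without injury and 92.1 CPM (87.55 to 96.8) at 6 weeks, a ratio of 1.69 (1.56 to 1.82). Loxl1 was at its highest there, with 562 CPM without injury and 594 CPM at 6 weeks, although over all kept cells of the protocol 1 libraries, VSMC-like ones included, the 6 week level was 0.801 times the uninjured one. Its order over the 7 groups was FB-like at 6 weeks, FB-like without injury, HSC-like at 72 h, HSC-like at 6 weeks, the VSMC-like groups and uninjured HSC-like cells, and the VSMC-like groups stood at 103 CPM without injury and 99.1 CPM at 6 weeks (ratio 0.960). Without called doublets this ratio turned to 1.14, and that of Loxl2 in VSMC-like cells was 1.37. For Lox the order was FB-like at 6 weeks, HSC-like at 72 h, FB-like without injury, VSMC-like at 6 weeks (23.4 CPM) and without injury (23.2 CPM), HSC-like at 6 weeks and uninjured HSC-like cells. For Lox the VSMC-like groups lay within counting error of each other, with a ratio of 1.01 (0.824 to 1.25), and the interval without injury (19.4 to 27.5 CPM) overlapped that of HSC-like cells at 6 weeks. The makeup of the VSMC-like groups differed. Clusters with Higd1b and Ephx3 among their leading genes held 587 of 1667 cells without injury and 1976 of 3007 at 6 weeks. The part of this makeup in the VSMC-like ratios was not tested. FB-like clusters differed in Lox level too, as given below, and the part of their makeup in the FB-like Lox ratio was not tested. In the FB-like Smart-seq2 wells described below, Lox with 6 weeks CCl4 was 0.650 to 1.204 times the uninjured level of its plate.

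Loxl2 in FB-like cells was 94.3 CPM without injury and 84.55 CPM at 6 weeks, and in VSMC-like cells it was 21.8 and 23.6 CPM, below every HSC-like group. Loxl3 was 31.9 and 36.7 CPM in FB-like cells and 16.7 and 15.8 CPM in VSMC-like cells. Loxl4 had 27 and 40 UMIs in the FB-like cells, which is 1.33 and 2.37 CPM, and 1 and 2 UMIs in the VSMC-like cells, at or under the 3 UMIs that a count of 0 allows, so no ratio was formed. The share of cells with a Loxl4 UMI in uninjured HSC-like cells was 6.35%, at a median of 6718 UMIs per cell. No member was past the fold at 6 weeks in FB-like or VSMC-like cells, where 1.33% and 2.19% of genes were higher and 0.383% and 0.356% lower.

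The other genes of matrix crosslinking differed unevenly between injured and uninjured HSC-like cells. Of the 5 fibrillar collagen genes compared, which encode the substrates of these enzymes, 4 were past the fold upward at 72 h, with a median log2 ratio of 2.19. Col1a1, a chain of type I collagen, stood at 2010 CPM against 201 CPM without injury, and Col5a2, a chain of type V collagen, at 374 CPM against 78.7 CPM. Of 10 elastic fibre genes, 5 were higher and 2 lower, with a median of 1.01. Ltbp2, a microfibril protein, stood at 62.8 CPM against 3 UMIs in all uninjured HSC-like cells. This was a ratio of 971 with a counting interval of 332 to 4710. Mfap4, whose protein the study used as a fibroblast marker, stood at 22.55 CPM against 0.302 CPM. The FB marker list was also higher in HSC-like cells at 72 h, as given above. The part of fibroblast RNA in the Mfap4 level was not tested. Efemp1, the matrix protein fibulin-3, was 5.72-fold lower at 72 h (103 against 592 CPM).

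The genes that act on the same lysines or supply the enzymes are given next. Of the 5 genes of procollagen and pro-lysyl oxidase processing and their matrix partners, only Fmod was past the fold at 72 h, at 20.7 CPM against 0.302 CPM. It encodes fibromodulin, a collagen-bound protein that guides lysyl oxidase to its sites. Fmod was also among the leading genes of FB-like clusters, and the part of fibroblast RNA in its level was not tested. None of the 6 lysine modification genes, which include the lysyl hydroxylases Plod1, Plod2 and Plod3, was past the fold, and their median log2 ratio was 0.52. Of 6 copper handling genes, only Atp7a, which loads copper into secreted enzymes, was past it, 2.48-fold lower at 9.54 against 23.65 CPM. At 6 weeks against uninjured, 1 fibrillar collagen gene (Col1a1, 3.01-fold) and 2 elastic fibre genes (Ltbp2 and Mfap2, the latter 2.53-fold) were past the fold, and no gene of the other lists. At 72 h against 6 weeks, 4 of 5 fibrillar collagen genes were higher, and 3 of 10 elastic fibre genes were higher and 2 lower. Among FB-like or VSMC-like cells no gene of the 6 lists was past the fold at 6 weeks.

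Within a library, Lox and Loxl1 were highest in the cells with most collagen RNA. HSC-like cells of each protocol 2 library were put in 4 equal parts by the share of their UMIs on Col1a1, Col1a2 and Col3a1. At 72 h the Lox level was 11.7 CPM in the part with least collagen, then 44.65 and 86.55 CPM, and 147 CPM in the part with most, a ratio of 12.5 (10.9 to 14.5). Every step upward was larger than the counting intervals. Without injury Lox stood at 1.04, 1.08, 1.87 and 6.17 CPM, and at 6 weeks at 6.31, 12.5, 18.4 and 36.4 CPM, ratios of 5.93 (3.18 to 12.0) and 5.77 (4.53 to 7.44). For Loxl1 the ratio of the highest to the lowest part was 2.098 without injury, 4.02 at 72 h and 3.803 at 6 weeks. For Loxl2 it was 1.53, 1.32 and 1.08, and the intervals for Loxl3 and Loxl4 included 1 in each library. The median depth also differed between the parts at 72 h, from 9954 UMIs in the lowest to 12867 in the highest, and its part in these ratios was not tested.

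**Figure D2:**
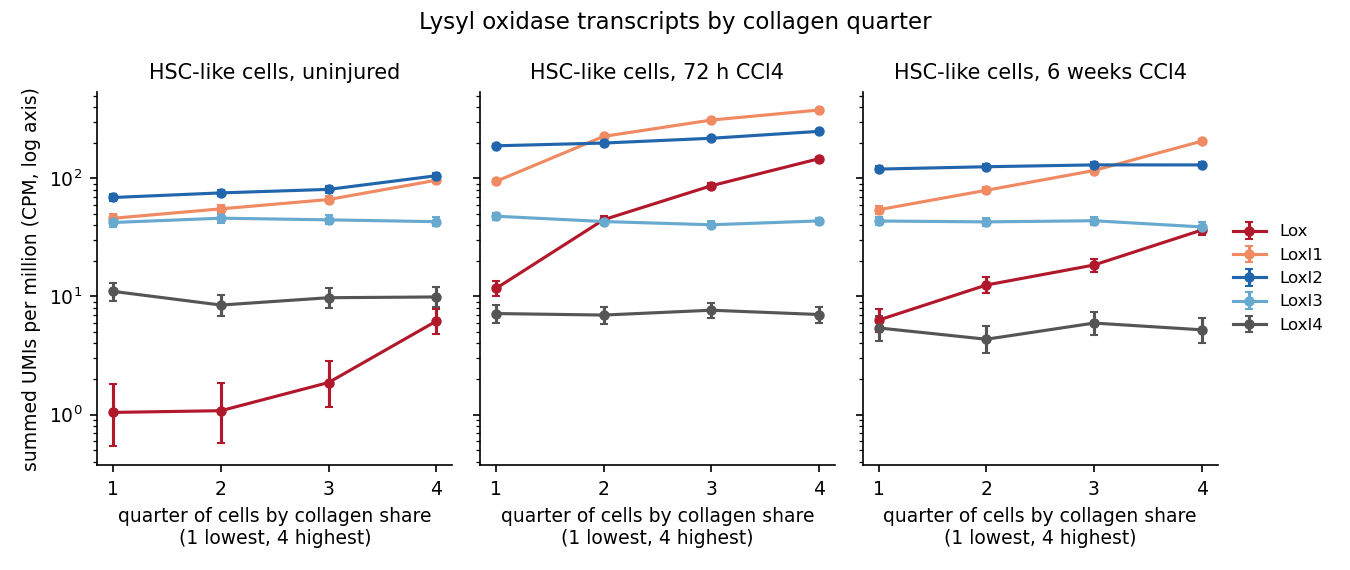
Level of each lysyl oxidase gene in HSC-like cells put in 4 equal parts by their collagen share, 1 panel per protocol 2 library, in CPM on a log axis with exact 95% Poisson intervals. At 72 h Lox climbs from 11.7 to 147 over the parts, while Loxl3 and Loxl4 run flat in all 3 panels.

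HSCs differ by their place in the lobule, and the cells were divided into portal vein-associated (PaHSC-like) and central vein-associated (CaHSC-like) cells by a score from the study's 52 portal and 29 central genes. These lists were chosen on the uninjured cells of this series, so they are not independent of it, and Loxl1 is one of the central genes and was left out of its own score. Lox did not differ between the zones beyond counting error without injury, at 2.25 CPM in PaHSC-like and 2.66 CPM in CaHSC-like cells (ratio 1.18, 0.804 to 1.76). At 72 h it stood at 18.9 CPM in PaHSC-like and 91.9 CPM in CaHSC-like cells, a ratio of 4.86 (4.34 to 5.45), and at 6 weeks at 7.84 and 23.4 CPM, a ratio of 2.98 (2.47 to 3.63). Each library was divided on its own score, and PaHSC-like cells numbered 2988 of 6850 without injury, 1667 of 7123 at 72 h and 1705 of 5433 at 6 weeks. The zones are thus not the same part of the cells in each library. Under this division the Lox level of both zones was higher in the injured libraries than in the uninjured one. In the injured libraries it was higher in CaHSC-like than in PaHSC-like cells.

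The division itself set the size of this ratio. With each library split at its median score the Lox ratio was 1.49 at 72 h and 1.75 at 6 weeks. With the stricter cell names, which leave out whole HSC-like clusters, it was 2.51 and 2.33. Loxl1 was higher in CaHSC-like cells in all 3 libraries, with ratios of 2.18, 2.79 and 3.50, as its place in the list requires in the uninjured one. With the median split its ratio was 1.51 at 72 h and 2.53 at 6 weeks. Loxl2 went from 93.9 CPM in PaHSC-like to 72.8 CPM in CaHSC-like cells without injury, a ratio of 0.775, and its ratio was 1.04 at 72 h and 0.820 at 6 weeks. The 72 h direction of Loxl2 turned with the median split (0.943) and with the stricter names (0.918). Loxl3 had ratios of 0.883, 0.897 and 0.865, of which the 72 h value turned to 1.04 with the median split, and Loxl4 1.11, 1.10 and 0.897. The score is continuous, and 5.38% to 10.7% of the cells lay within 0.1 of the dividing value.

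Clusters of at least 50 cells, from each library clustered alone, showed where each member was concentrated. At 72 h, Lox ranged from 6.66 CPM in a cluster of 998 cells led by Clec4g and Gcgr to 348 CPM in a cluster of 88 cells led by Ltbp2, Tnc and Adamtsl2. This range is over all clusters of the library, not the HSC-like ones alone. Ltbp2 and Tnc were also among the leading genes of an FB-like cluster with 170 cells of this library in its joint clustering. The 186 cells of this library named FB-like held 244 CPM of Lox, against 77.0 CPM in its HSC-like cells. Whether these 186 cells are fibroblasts or activated HSCs was not tested. A cluster of 640 cells led by Ankrd1, Cthrc1 and Acta2, genes of contractile myofibroblasts, held 152 CPM. In uninjured HSC-like clusters the range was 0.879 to 12.8 CPM, the highest in 444 cells led by Fam180a, Gas6 and Dpt with 33 UMIs of Lox. Dpt is also one of the FB markers used for naming. The part of fibroblast RNA in the Lox level of this cluster was not tested. In FB-like clusters Lox was lowest without injury in cells led by Cxcl14 and Apod (17.5 CPM) and highest in cells led by Sfrp2, Chad, Tnmd and Thbs4 (114 CPM), genes known from tendon and cartilage. A cluster led by the same Thbs4 held 114 CPM at 6 weeks too. In VSMC-like clusters Lox ran from 5.65 to 54.7 CPM without injury and from 10.2 to 75.3 CPM at 6 weeks.

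The other members varied over the clusters as well. Loxl1 ran from 400 to 725 CPM in uninjured FB-like clusters, from 53.1 to 397 CPM in uninjured VSMC-like ones and from 65.9 to 472 CPM in HSC-like ones at 72 h. Loxl2 was highest among uninjured FB-like clusters in cells led by Krtdap, Dmkn and Dpp4 (173 CPM), against 54.8 CPM in the lowest. Loxl3 stayed between 26.5 and 37.2 CPM in uninjured FB-like and between 38.0 and 54.9 CPM in uninjured HSC-like clusters. Loxl4 ran from 5.54 to 15.8 CPM in uninjured HSC-like clusters and stayed at or under 3.63 CPM in every FB-like cluster of protocol 1 and 1.56 CPM in every VSMC-like one. The members and the listed pathway genes were kept out of the genes used for clustering, although Lox was itself among the 10 leading genes of the 88-cell cluster.

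**Figure D3:**
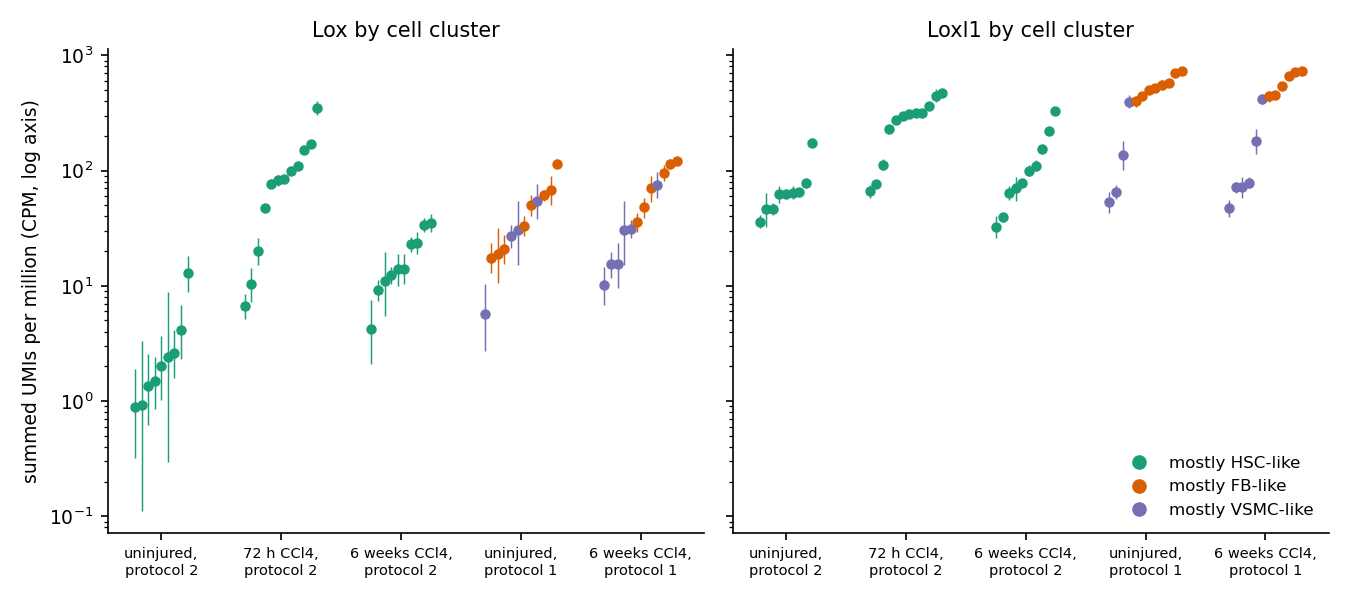
Level of Lox and Loxl1 in each cluster of at least 50 cells of the 5 10X libraries, in CPM on a log axis, coloured by class, with exact 95% Poisson intervals. Lox spreads widest in the 72 h library, from 6.66 to 348, and Loxl1 is high in all FB-like clusters.

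Over these 55 clusters the genes most like each member were found by Pearson's r of log2(CPM + 1) among 9444 genes, as a description, since clusters of 1 library share its depth and its animals. Lox was most like Figf (r = 0.888), Myof (0.885) and Mfap2 (0.862), a vascular growth factor, a membrane repair protein and a microfibril protein. Loxl1 was most like Mfap2 (0.941), Mmp19 (0.941) and Dclk1 (0.938). For Loxl2 these were P4hb (0.940), Surf4 (0.940) and Colgalt1 (0.939), which act in the endoplasmic reticulum, P4hb and Colgalt1 on collagen chains. For Loxl3 they were the chaperone gene Calr (0.913), Sptlc2 (0.908) and Fkbp9 (0.892), and for Loxl4 they were Hs3st3b1 (0.936), Mbd2 (0.932) and Tln2 (0.929).

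Smart-seq2 gave full-length reads of 2065 kept wells, which were summed per mouse on a plate (a portion) and class and expressed as reads per 1000000 (RPM). FB-like and VSMC-like wells came from 6 uninjured, 5 BDL and 4 CCl4 portions, and HSC-like wells from 2 uninjured portions of plate 6 only. Each injured portion shared its plate with 1 uninjured portion. On plates 1, 2, 3 and 5 the injured portions were set against the same uninjured portion, so their within-plate ratios are not independent. How many of all genes were higher within the plate in every BDL portion was not counted. Whether the same mouse was sorted on more than 1 plate is not given in the sources used here, so the p-values measure the spread between portions. Tests were edgeR's quasi-likelihood test with Benjamini-Hochberg adjustment over all genes.

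Per kilobase of exon (RPKM), the members could be ordered within a class. In uninjured FB-like wells the mean was 281 RPKM for Loxl1, 52.4 RPKM for Lox, 21.9 RPKM for Loxl3, 6.47 RPKM for Loxl2 and 3.12 RPKM for Loxl4. In uninjured HSC-like wells Loxl3 (30.6 RPKM) and Loxl1 (26.6 RPKM) were the most abundant on this scale, followed by Loxl4 (11.8 RPKM), Loxl2 (6.51 RPKM) and Lox (0.513 RPKM). Thus Lox was the least abundant member in HSC-like wells and Loxl4 in FB-like wells. Other parts of the order differed in the 10X data. In uninjured HSC-like cells Loxl2 (82.15 CPM) lay above Loxl1 (65.4 CPM) and Loxl3 (43.97 CPM). In uninjured FB-like cells Loxl1 was highest and Lox lay above Loxl3 as in the wells, but Loxl2 (94.3 CPM) lay above Lox (54.6 CPM). Loxl3 shares 535 exon bases with Htra2, a mitochondrial protease gene on the other strand, and counting is not stated to use strand, so its Smart-seq2 values are uncertain. Loxl2 likewise shares 301 exon bases with the antisense gene Gm27177.

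Lox was called higher with bile duct ligation in FB-like wells without plate as a term, but the call depended on the fit and on the cell names. The uninjured portions of plates 1 to 6 held 265, 94.3, 312, 266, 444 and 121 RPM. The BDL portions held 537 and 1011 RPM on plate 1, 604 and 1330 RPM on plate 2 and 785 RPM on plate 4. The highest levels, 1330 and 1011 RPM, came from the smallest BDL portions, of 9 wells (3271476 reads) and 13 wells, while the others held 63 to 119 wells (up to 49917169 reads). The layout labels both of these portions BDL 2 and the others BDL 1. Whether a label stands for the same mouse on each plate is not given, so n counts portions and may exceed the number of mice. Every BDL portion lay above every uninjured one, with means of 854 ± 323 RPM (SD, n = 5) and 250.5 ± 128 RPM (SD, n = 6). How many of all genes had groups apart in this way was not counted, and 1519 had an unadjusted p under 0.05 (edgeR). The Lox log2 fold change was 1.77 (SE 0.34), a 3.42-fold difference, with an adjusted p of 0.0222 (edgeR). Lox was 1 of 71 genes called higher, 0.509% of the 13962 tested, while 0.229% were called lower. An exact two-sided permutation test of the log2 levels over portions gave p = 0.00433, where the smallest possible is 0.00216, unadjusted and 1 of 30 such values computed.

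Within a plate, Lox in the BDL portion was 2.03, 3.81, 6.41, 14.1 and 2.95 times the uninjured portion's level. With plate as a term the log2 fold change was 2.12 (SE 0.45) but the adjusted p was 0.161, and only 2 genes in all were called. The call was also lost with 1 sum per plate and condition (1.46, adjusted p = 0.146), without the second BDL portion of plate 1 (adjusted p = 0.0522) and without the uninjured portion of plate 1 (adjusted p = 0.0541). With the stricter cell names, which leave out the FB-like cluster with Fmod and Cilp described below, the log2 fold change was 0.78 (adjusted p = 0.846).

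Markers of bile duct cells stood beside this result. Their summed level in FB-like wells ran from 14.7 to 1613 RPM (median 23.8) in uninjured portions, from 56.9 to 2176 RPM (median 2058) in BDL portions and from 85.0 to 1892 RPM (median 525) in CCl4 portions. Most of it was Spp1, with medians of 1.88, 1851 and 494 RPM, and the defining marker Epcam was at 0 in 3 of 6, 2 of 5 and 3 of 4 portions. Krt19 had medians of 0.04388, 22.92 and 22.1 RPM, and Sox9 had medians of 16.06, 32.44 and 13.24 RPM. The Epcam median was higher with BDL too, at 2.362 against 0.01909 RPM, while the Krt7 median was lower with BDL than without injury. Wells with at least 3 markers of another cell type made up 7 of 255 uninjured, 21 of 302 BDL and 11 of 255 CCl4 FB-like wells. Without them the Lox log2 fold change with BDL was 1.79 (adjusted p = 0.0189).

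With CCl4, the Lox level in FB-like wells was 376 and 303.5 RPM on plate 3 and 288.5 and 440 RPM on plate 5, within the range of the uninjured portions. The log2 fold change was 0.51 (SE 0.35, adjusted p = 0.911), and the portions were 0.650 to 1.204 times the uninjured portion of their plate. No member was called with CCl4, against 0.537% of genes higher and 0.043% lower. On simulated counts of this design the test recovered 0% of genes changed 2-fold and 16% of those changed 4-fold, so most such changes would go uncalled. The BDL effect on Lox exceeded the CCl4 effect by 2.17 (SE 0.62) on the log2 scale with plate as a term, with an adjusted p of 1. No gene was called for this difference by edgeR, and 604 genes had an unadjusted p under 0.05.

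**Figure D4:**
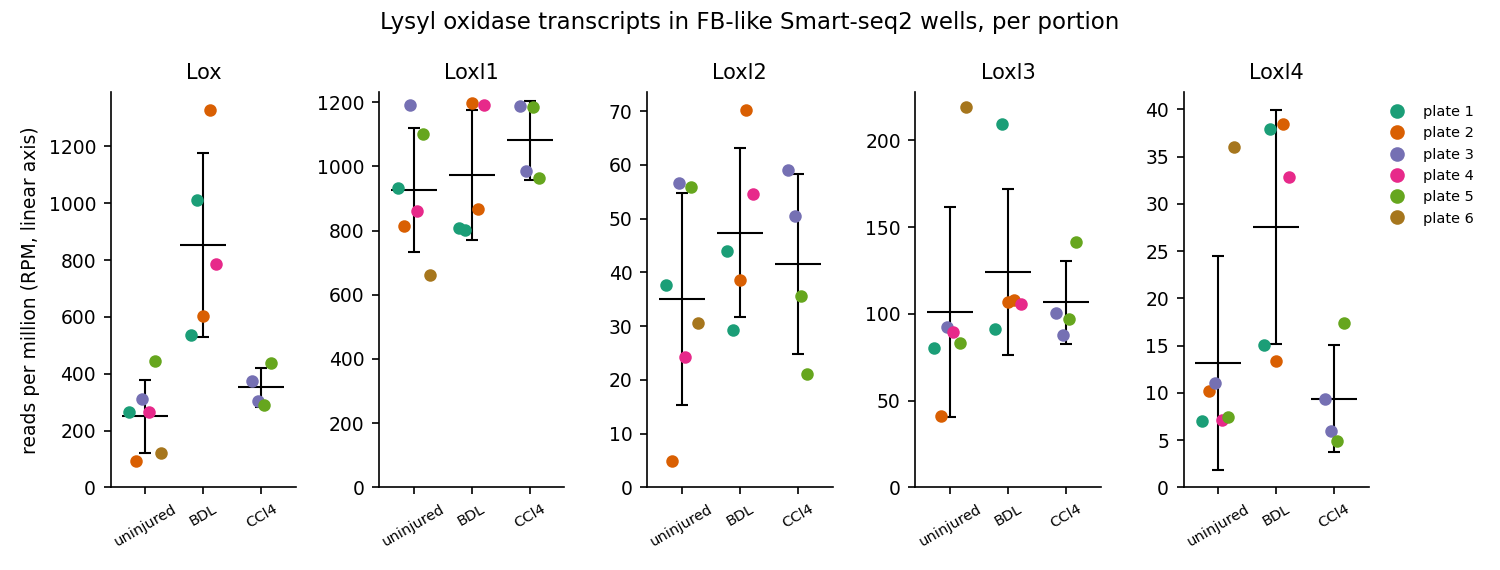
Level of each lysyl oxidase gene in the FB-like wells of each portion of the Smart-seq2 plates, in RPM on linear axes, coloured by plate, with the mean ± SD of 6 uninjured, 5 BDL and 4 CCl4 portions. All BDL portions lie above all uninjured ones for Lox (537 to 1330 against 94.3 to 444), and the groups overlap for the other 4 genes. How many of all genes have groups apart in this way was not counted.

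No other member was called with BDL in FB-like wells. Loxl1 averaged 927 ± 194 RPM (SD, n = 6) without injury and 973 ± 203 RPM (SD, n = 5) with BDL, a log2 fold change of 0.08 with a 95% interval from -0.29 to 0.44. Loxl2 averaged 35 ± 19.8 and 47.4 ± 15.7 RPM, with an interval from -0.46 to 1.34. Loxl3 averaged 101 ± 60.6 and 124 ± 48.0 RPM, with an interval from -0.42 to 0.95. It was higher than its plate's uninjured portion in 5 of 5 portions, which lie on plates 1, 2 and 4 and partly share that uninjured portion. Loxl4 averaged 13.2 ± 11.4 and 27.6 ± 12.4 RPM, a log2 fold change of 1.02 (SE 0.58, adjusted p = 0.575). It too was higher within the plate in 5 of 5 portions, by 1.31 to 5.39 times, and its groups overlapped. The share of all genes with 5 of 5 was not counted, so these counts show nothing particular to Loxl3 or Loxl4. The exact two-sided permutation test over portions gave an unadjusted p of 0.0455 for Loxl4.

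FB-like wells fell into 4 main clusters, and the Lox level differed between them as well as with injury. These values are a description, since the clusters were made from the same wells. In the cluster with Fmod and Cilp, which held 42.0% of uninjured and 47.4% of BDL FB-like wells, Lox stood at 149 RPM without injury, 685 RPM with BDL and 258 RPM with CCl4. Its BDL portions held 380.5, 1231, 658, 1330 and 619.5 RPM and its uninjured portions 89.6 to 196 RPM. In the cluster with Has1 and Scara5, which held 28.2% of uninjured and 44.0% of BDL FB-like wells, Lox was already high without injury. Summed over wells it stood at 651 RPM, with 721 RPM in BDL and 522 RPM in CCl4 wells. By portion the uninjured values ran from 409.5 to 1094 RPM. The BDL portions held 608.5 RPM, 274 RPM (1 well), 279 RPM and 910.5 RPM. The cluster with Wif1 and Notum held 105 RPM in 74 uninjured wells and 130.5 RPM in 35 CCl4 wells, and had only 4 BDL wells. The cluster with Hp, Cxcl5 and Saa3 held 55.7% of the CCl4 FB-like wells (420 RPM), 22 BDL wells (617 RPM) and 2 uninjured wells. The part of this cluster makeup in the Lox differences over all FB-like wells was not tested.

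**Figure D5:**
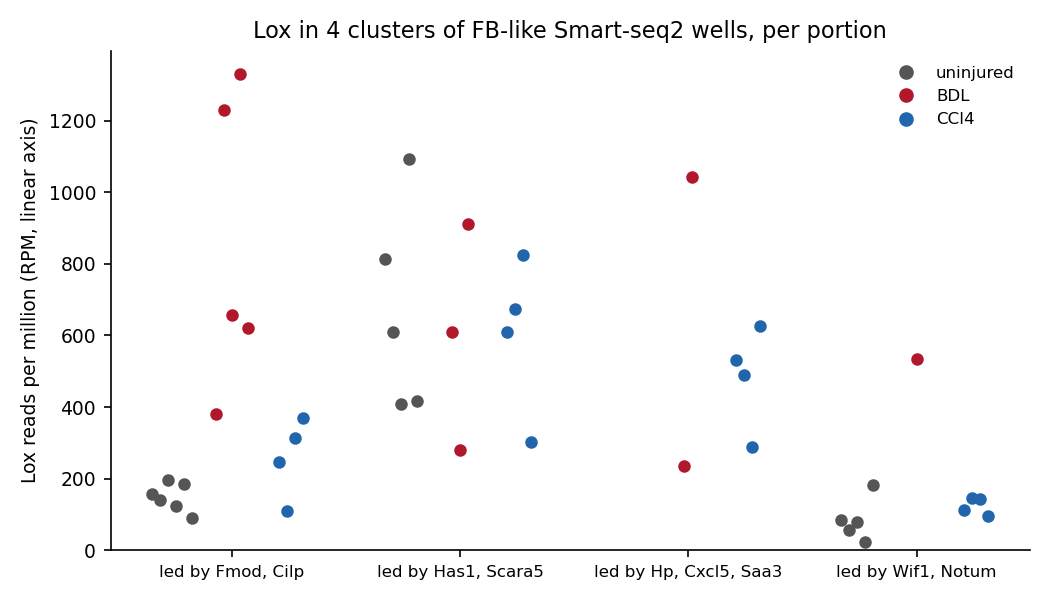
Lox in RPM for each portion with at least 3 wells in each of 4 FB-like Smart-seq2 clusters, by condition. In the cluster with Fmod and Cilp the BDL portions (380.5 to 1330) lie above the uninjured ones (89.6 to 196). In the cluster with Has1 and Scara5 the uninjured portions (409.5 to 1094) and the BDL ones (279 to 910.5) overlap.

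In VSMC-like wells, the smooth muscle of the vessel wall, Lox averaged 62.3 ± 28.9 RPM (SD, n = 6) without injury, 104 ± 18.3 RPM (SD, n = 5) with BDL and 68.2 ± 36.1 RPM (SD, n = 4) with CCl4. It was 1.56 to 2.43 times the uninjured portion of the plate in 5 of 5 BDL portions, which lie on plates 1, 2 and 4 and partly share that uninjured portion. The share of all genes with 5 of 5 was not counted here either. The groups overlapped, and the log2 fold change of 0.80 (SE 0.32) had an adjusted p of 0.405 (edgeR). The exact permutation test over portions gave an unadjusted p of 0.0216. No member was called in VSMC-like wells, against 0.245% of 13080 genes higher and 0.138% lower with BDL. With CCl4 no gene was called at all by edgeR, while 611 had an unadjusted p under 0.05 and DESeq2 called 57. Loxl1 averaged 106, 110 and 74.7 RPM, Loxl2 10.4, 15.2 and 17.5 RPM and Loxl3 68.3, 51.2 and 63.3 RPM in uninjured, BDL and CCl4 wells. Loxl4 was at 0 in 4 of 6 uninjured, 2 of 5 BDL and 4 of 4 CCl4 portions and was not tested. Over all wells of plates 1 to 5, Lox averaged 161 RPM without injury, 342 RPM with BDL and 225 RPM with CCl4, with a log2 fold change of 1.13 (edgeR adjusted p = 0.183, unadjusted exact permutation p = 0.0238) for BDL, where 0.172% of 15083 genes were called higher and 0.133% lower. Loxl4 there averaged 3.66 RPM without injury and 9.49 RPM with BDL (edgeR adjusted p = 0.357, unadjusted exact permutation p = 0.0159). No member was called over all wells with CCl4 either, against 0.139% higher and 0.00663% lower. In these sums a change in the share of FB-like wells and a change of RNA per well cannot be told apart.

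In the uninjured HSC-like portions of plate 6, Lox stood at 0.913 and 3.99 RPM, below every FB-like and VSMC-like portion. Loxl4 stood there at 52.55 and 47.1 RPM, against 36.1 RPM in the 19 FB-like wells of the same plate and at most 0.159 RPM in the uninjured VSMC-like portions. Of these 19 wells, 1 held 369 RPM of Loxl4, and the 14 in the cluster with Fmod and Cilp together held 14.3 RPM. The uninjured FB-like portions of the other plates held 7.04 to 11 RPM of Loxl4. In the HSC-like portions Loxl1 stood at 101.5 and 74.0 RPM, Loxl2 at 28.1 and 42.2 RPM and Loxl3 at 139 and 143 RPM.

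The crosslinking genes that passed the test beside Lox in FB-like wells were few. With BDL they were 1 of 8 fibrillar collagen genes (Col5a2, log2 fold change 1.40, adjusted p = 0.0446), 1 of 12 elastic fibre genes (Mfap2, 0.86, adjusted p = 0.0491), 1 of 6 processing and partner genes (Fn1, 1.95, adjusted p = 0.0222) and 1 of 5 lysine modification genes (Plod2, 1.72, adjusted p = 0.0268). Fn1 encodes fibronectin, a matrix scaffold on which lysyl oxidase is processed, and Plod2 hydroxylates the telopeptide lysines of collagen. Col5a2 rose from 790 to 2086 RPM on average. Of 3 other copper amine oxidases, Aoc1, the diamine oxidase gene, rose from 3.90 to 155 RPM (adjusted p = 0.0419), and none of 7 copper handling genes was called. The median log2 fold change was 0.82 over the fibrillar collagen genes tested and 0.01 over all genes. With CCl4, Bmp1 (1.74, adjusted p = 0.00078), the protease that cleaves procollagens and pro-lysyl oxidase, and Fn1 (1.98, adjusted p = 0.0199) rose, and Ltbp4, an elastic fibre assembly gene, fell from 1505 to 574 RPM (adjusted p = 0.0086). Markers of other cells also differed in these CCl4 portions. The summed leucocyte list ran from 258 to 568 RPM against 2.501 to 218 RPM in uninjured portions, almost all of it Cd74 (244 to 549 against 0 to 45.5 RPM), while Ptprc was at most 0.203 RPM and Cd3e and Clec4f were at 0. The Schwann list ran from 7.26 to 12.8 RPM against 0 to 3.70 RPM, and the part of these markers in the calls was not tested. All of these calls were lost with plate as a term, with adjusted p-values of 0.167 to 0.544. In VSMC-like wells and over all wells, no gene of the 6 lists was called with BDL or CCl4.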

How the data were processed

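The deposited values were raw counts, UMIs per gene and cell for 10X (3' chemistry, made by the authors with Cell Ranger 2.1.0) and reads per gene and well for Smart-seq2 (STAR, mm10). The members, gene lists and comparisons were chosen with earlier results of these data known, and the rule that names clusters (at least a 2-fold lead of one marker list) was settled once clusters had been inspected. Cells with fewer than 300 genes or over 30% mitochondrial UMIs were left out. Each library was clustered alone (10 principal components of up to 2000 variable genes, 30 neighbours, Leiden at resolution 0.8), and called doublets were kept, with their removal as an alternative. The rule for named genes took the members, the 3 genes most like each, and up to 3 genes per list and comparison past the test or fold with the largest change. The reporter row was dropped and rows with the same symbol were summed. A 10X gene counted as past the fold at a ratio of 2 or more, if the higher level reached 20 CPM.

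Smart-seq2 wells were kept within 3 median absolute deviations, and portions with at least 5 wells of a class entered 1 edgeR fit (TMM, filterByExpr, glmQLFit with robust=TRUE). Plates are a shared batch by the labels, so plate as a term was an alternative. Taken over genes, same-plate portions did not deviate together (0 of 9 FB-like pairs with a correlation over 0.1, range -0.0675 to 0.0955). For VSMC-like pairs the range was -0.0871 to 0.049. Such a correlation cannot show whether plates differed for a single gene. In VSMC-like wells Lox stood at 41.75 (uninjured), 25.1 and 52.7 RPM (CCl4) on plate 3. On plate 5 it stood at 119.8 (uninjured), 104.5 and 90.3 RPM (CCl4). The test was run on simulated counts with known changes: in the FB-like BDL design it recovered 1% of genes changed 2-fold and 26% of those changed 4-fold. In the FB-like CCl4 design these were 0% and 16%, and 11.1% of the genes called there were false. Sequences and gene models came from GENCODE vM21 on GRCm38. Versions were Python 3.11.15, scipy 1.17.1, leidenalg 0.10.2, R 4.3.3, edgeR 4.0.16 and DESeq2 1.42.0.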

Additional observations from a re-analysis of the deposited data

Results flagged for a closer look

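Of 44 groups of 4 to 6 Smart-seq2 portions, 6 held a portion set apart from the others by Dixon's 95% critical value, where chance flags about 1 in 20 groups, or 2.2 of them. In FB-like wells, Loxl3 was 218.9 RPM in the uninjured portion of plate 6 (19 wells), against 92.7 RPM in the next, and 209.2 RPM in the second BDL portion of plate 1 (13 wells), against 108 RPM in the next. Loxl4 was 36.08 RPM in the same portion of plate 6, where 1 of the 19 wells held 369 RPM, against 11 RPM in the next. In VSMC-like wells, Lox was 119.8 RPM in the uninjured portion of plate 5, against 57.3 RPM in the next. Loxl2 was 37.58 RPM in the first CCl4 portion of plate 3, against 12.1 RPM in the next, and Loxl4 was 5.833 RPM in the first BDL portion of plate 2, against 1.31 RPM in the next.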

How the results depend on the processing

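Each result was recomputed under the alternatives of cell and gene filters, clustering, naming, normalization and tool, some of which (stricter names, leaving out plate 6 or wells with markers of other cell types) were chosen after seeing the data. In 10X data, the stricter cell names, which leave out whole HSC-like clusters, gave other ratios. At 72 h against uninjured they were 38.86 for Lox, 4.36 for Loxl1 and 2.79 for Loxl2. At 72 h against 6 weeks the Loxl1 ratio was 2.07, where a clustering resolution of 0.4 gave 2.35. At 6 weeks against uninjured, 0 members were past the fold as reported. The number was 1 with all barcodes, with 1 joint clustering of all libraries or over all kept cells. It was 2 with the stricter names (Lox 9.32, Loxl1 2.11). The ratio of CaHSC-like to PaHSC-like cells with a split at the median score was 1.49 for Lox and 1.51 for Loxl1 at 72 h and 1.75 and 2.53 at 6 weeks, and with stricter names 2.51, 1.91, 2.33 and 3.12. At 72 h the Loxl2 ratio was 0.943 with the median split and 0.918 with stricter names, and the Loxl3 ratio 1.04 with the median split. Without called doublets the 6 week ratio in VSMC-like cells was 1.14 for Loxl1 and 1.37 for Loxl2, and over all kept cells of protocol 1 it was 0.801 for Loxl1, 0.728 for Loxl2 and 0.958 for Loxl3.

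In Smart-seq2 data, the replicate block (plate as a term) gave a Lox log2 fold change with BDL in FB-like wells of 2.12 (adjusted p = 0.161), 1 sum per plate and condition gave 1.46 (0.146) and stricter names 0.78 (0.846), so that 0 members were called under each, and leaving out 1 portion gave 1.55 to 2.00 (adjusted p 0.0130 to 0.0541, past in 13 of 15) and 0 to 1 members called. DESeq2 gave 1.83 (adjusted p = 3.29e-05) and, over all wells, called 1 member, Lox. The cause of these differences was not tested.

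Among values that passed no test, some changed sign. With stricter names the BDL values in FB-like wells were -0.23 for Loxl1, -0.44 for Loxl2, -0.36 for Loxl3 and -0.68 for Loxl4. With the plate block the CCl4 values were -0.049 for Lox, -0.057 for Loxl1, -0.52 for Loxl2 and 0.039 for Loxl4 in FB-like wells, -0.18 for Lox and -0.11 for Loxl2 in VSMC-like wells and -0.27 for Loxl2 over all wells. Without plate 6, Loxl4 with CCl4 in FB-like wells was 0.16. Loxl1 with BDL over all wells was 0.013 with DESeq2, 0.21 with the plate block, 0.011 with a well filter on log10 values, 0.18 with 1 sum per plate and condition and 0.040 without wells with other markers. With 1 portion left out, values ran from -0.052 to 0.16 for Loxl1 with BDL, -0.13 to 0.47 for Loxl3 with CCl4 and -0.999 to 0.16 for Loxl4 with CCl4 in FB-like wells. In VSMC-like wells they ran from -0.14 to 0.44 for Lox with CCl4, -0.066 to 0.23 for Loxl1 with BDL, -0.19 to 0.042 for Loxl3 with CCl4 and -0.61 to 2.32 for the Loxl2 difference between BDL and CCl4. Over all wells they ran from -0.23 to 0.22 for Loxl1, -0.017 to 0.53 for Loxl2 and -0.048 to 0.15 for Loxl3 with BDL, and from -0.060 to 0.65 for Loxl2 with CCl4.

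The genes called in FB-like wells numbered 103 with BDL and 81 with CCl4, against 2 and 4 with the plate block, 428 and 267 with DESeq2, 40 and 32 with 1 sum per plate and condition, 10 with BDL under stricter names, and 31 to 115 and 33 to 90 with 1 portion left out. In VSMC-like wells 50 genes were called with BDL, against 1 with the block, 259 with DESeq2, 15 with 1 sum and 19 to 62 with 1 portion left out. Over all wells these were 46 with BDL and 22 with CCl4, against 3 and 2, 366 and 246, 52 and 34, and 7 to 57 and 1 to 98. Loxl4 in VSMC-like cells gave no value without doublets. The 10X comparisons rest on 1 library per condition and cannot separate injury from the animals or the run, and 27 to 40 Loxl4 UMIs in FB-like cells limit what can be said of it there.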

Other observations

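The 72 h library also held 186 FB-like cells, 170 of them in 1 cluster of its joint clustering with the uninjured libraries. Lox stood there at 244 CPM, Loxl1 at 548 CPM, Loxl2 at 230 CPM, Loxl3 at 40.3 CPM and Loxl4 at 7.42 CPM. These cells came from digestion protocol 2, whose uninjured library held no FB-like cells to set beside them, and they entered no fold comparison. Their Loxl2 and Loxl4 lay near the 72 h HSC-like levels (216 and 7.2 CPM). Both were above the protocol 1 FB-like levels (at most 94.3 and 2.37 CPM). Their Loxl1 lay near the protocol 1 FB-like levels (562 and 594 CPM), above the 72 h HSC-like one (263 CPM). Lox was above both and Loxl3 between them. Whether these cells are fibroblasts was not tested.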
